A study of Mus musculus with 6 samples.

Results

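The 10 crystallin genes Cryaa, Cryab, Cryba1, Cryba2, Cryba4, Crybb1, Crybb2, Crybb3, Crygs and Crym were followed in the mouse retina after injury of the optic nerve. They were taken by symbol from tables of 35485 genes, and all 10 had a row. RNA was sequenced from retinas of wild type C57BL/6 mice at 12 weeks of age, 2 days after surgery. In the ONC group forceps crushed the optic nerve 2 mm behind the eye for 10 seconds, and in the sham group the nerve was only exposed. Each group had 3 samples, named here ONC 1 to 3 and sham 1 to 3, and each sample was a pool of RNA from 6 retinas of 6 mice, so the spread between samples is a spread between pools. The list was selected on the exon reads and RPKM of these same pools. The differences of its genes between ONC and sham are therefore given as a description, without p-values.

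Crystallins are the main soluble proteins of the eye lens. The alpha crystallins Cryaa and Cryab are small heat shock proteins that keep other proteins from aggregating. The beta and gamma crystallins form a separate superfamily of compact, long-lived proteins, of which the beta crystallins assemble into dimers and larger oligomers while the gamma crystallins stay single. Crystallin transcripts are also known from tissues outside the lens, the retina among them. Crym has a crystallin name only because its product is abundant in the lens of some marsupials: it binds thyroid hormone in the cytosol and reduces ketimines, and shares no ancestry with the lens crystallins.

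Exon reads per pool ranged from 17343945 to 18349331 in sham and from 20019818 to 20358008 in ONC. The rod arrestin gene Sag, which marks retina, had a mean RPKM (exon reads scaled to exon length and to all reads on genes) of 2441 ± 128 in sham and 3472 ± 172 in ONC (SD, n = 3). One pool stood apart for the crystallins. In sham 1, the RPKM of 8 of the 10 genes was 2.90 to 8.97 times the mean of sham 2 and sham 3, and 6 of these 8 were at or above the lowest ONC pool (7 of 8 in TMM-scaled reads). Values of the crystallin genes are therefore given per pool, and their fold changes with and without sham 1. All reads on the exons of the 10 genes were mapped uniquely.

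Over the 6 pools the mean RPKM of the genes, a level per exon length, ran in the order Crym (30.1), Cryab (23.3), Crybb2 (17.6), Cryaa (16.95), Cryba1 (8.09), Crygs (6.13), Cryba2 (4.595), Cryba4 (2.77), Crybb3 (1.90) and Crybb1 (1.497). For all 9 neighbouring pairs in this order the ranges over the 6 pools overlapped. Within the ONC pools alone, 7 of the 9 pairs overlapped, and Crym lay apart from Cryab and Cryaa apart from Cryba1.

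**Figure D1:**
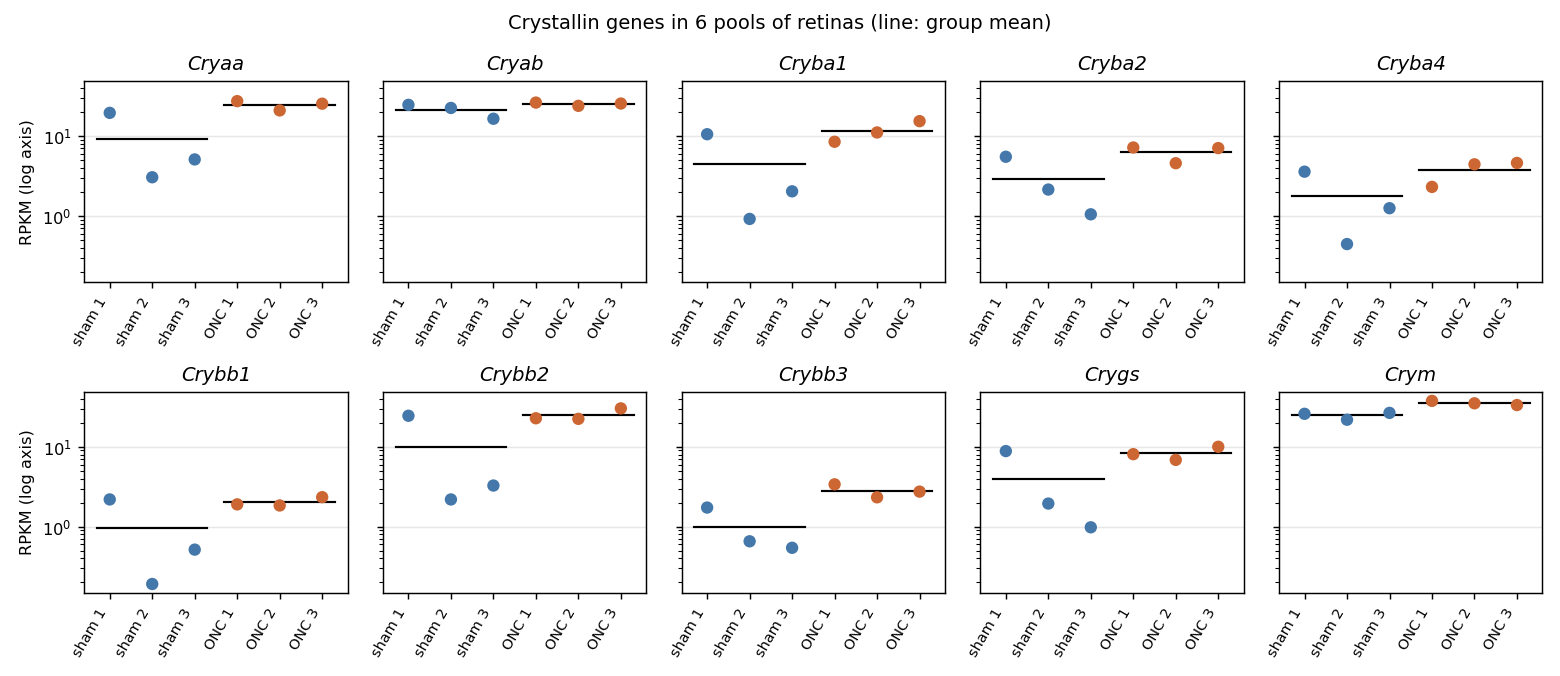
RPKM of each crystallin gene in the 3 sham pools (blue) and the 3 ONC pools (orange) on a log axis, with black lines for the group means. In 8 panels sham 1 sits near the ONC pools and well above sham 2 and sham 3, while the points of Cryab and Crym stay close together.

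The 2 alpha crystallins followed different courses. Cryaa, with 4 exons on chromosome 17 (31677945 to 31681724), had 529, 86 and 147 exon reads in sham 1, 2 and 3 and 817, 615 and 778 in ONC 1, 2 and 3. Its RPKM was 19.6, 3.05 and 5.11 in the sham pools and 27.5, 21.01 and 25.5 in the ONC pools, so every ONC pool was above every sham pool on that scale, with sham 1 close behind. After TMM scaling, which sets the typical gene at no change, sham 1 overlapped the ONC pools. Its log2 fold change was 1.32 (SE 0.36), and 2.44 (SE 0.21) without sham 1.

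Cryab, the alpha crystallin that is also made in glia and muscle, has 3 exons on chromosome 9 (50752758 to 50756633). It had 672, 640 and 479 exon reads in the sham pools and 790, 707 and 788 in the ONC pools. The RPKM was 24.7, 22.5 and 16.52 in sham and 26.3, 24.0 and 25.6 in ONC. The groups overlapped, and sham 2, the pool with the fewest Cryaa reads, was not low for Cryab. The log2 fold change was 0.14 (SE 0.11), and 0.23 (SE 0.12) without sham 1. The mean RPKM of Cryaa in sham was 9.24 ± 9.0, against 21.2 ± 4.23 for Cryab (SD, n = 3), whereas in ONC it was 24.7 ± 3.30 for Cryaa and 25.3 ± 1.22 for Cryab.

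The acidic beta crystallins were measured by fewer reads. Cryba1, on chromosome 11 (77718732 to 77725293), gives rise to both βA1- and βA3-crystallin by the use of alternative start codons. It had 166, 15 and 34 exon reads in the sham pools and 147, 189 and 273 in the ONC pools. Sham 1 lay above ONC 1, while sham 2 and sham 3 lay far below all others. Cryba2, on chromosome 1 (74889944 to 74893135), had 89, 36 and 18 exon reads in sham and 128, 80 and 129 in ONC. Cryba4, on chromosome 5 (112246533 to 112252502), had 62, 8 and 23 exon reads in sham and 44, 83 and 90 in ONC. In all of these the groups overlapped through sham 1 alone. The log2 fold changes were 1.27 (SE 0.47) for Cryba1, 1.02 (SE 0.39) for Cryba2 and 0.99 (SE 0.48) for Cryba4. Without sham 1 they were 2.82, 1.85 and 1.98.

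The basic beta crystallins ranged from the most to the least abundant of the lens crystallins in mean RPKM, apart from Cryab. Crybb2, the most abundant of the beta crystallins in these pools and a gene whose mutations cause cataract, has 5 exons on chromosome 5 (113058265 to 113068766). It had 408, 38 and 58 exon reads in the sham pools and 418, 404 and 570 in the ONC pools. Its RPKM was 24.5, 2.19 and 3.27 in sham and 22.8, 22.4 and 30.4 in ONC. Sham 1 lay within the range of the ONC pools, and its RPKM was 8.97 times the mean of sham 2 and sham 3. The log2 fold change of 1.24 had an SE of 0.47, and without sham 1 the value was 3.05 (SE 0.23).

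Crybb1, on chromosome 5 (112255821 to 112269582), had 44, 4 and 11 exon reads in sham and 42, 40 and 53 in ONC. At 4 reads its level in sham 2 is known only within wide limits. Crybb3, on chromosome 5 (113075839 to 113081584), had 33, 13 and 11 exon reads in sham and 71, 48 and 59 in ONC. It was the lens crystallin in which sham 1 stood lowest against the ONC pools, and every ONC pool exceeded every sham pool in reads, RPKM and TMM-scaled reads. The log2 fold changes were 0.97 (SE 0.56) for Crybb1 and 1.42 (SE 0.43) for Crybb3, and 2.34 and 2.08 without sham 1.

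Crygs, on chromosome 16 (22805203 to 22811410), encodes γS-crystallin, the gamma crystallin that is also made in the adult lens cortex. It had 144, 33 and 17 exon reads in the sham pools and 145, 121 and 184 in the ONC pools. The RPKM was 8.85, 1.95 and 0.98 in sham and 8.09, 6.87 and 10.0 in ONC, with sham 1 above ONC 1 and ONC 2. The log2 fold change was 0.996 (SE 0.44), and 2.37 (SE 0.33) without sham 1.

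Crym, with 8 exons on chromosome 7 (120186384 to 120201988), had 749, 658 and 819 exon reads in sham and 1197, 1098 and 1088 in ONC. Its RPKM was 25.9, 21.9 and 26.6 in the sham pools and 37.7, 35.1 and 33.4 in the ONC pools, so the groups did not overlap and sham 1 did not stand apart. The log2 fold change was 0.39 (SE 0.10) with all pools and 0.39 (SE 0.12) without sham 1. The difference of Crym between the groups was thus small but even across pools, unlike that of the lens crystallins. In bulk retina, a change in the number of cells that hold a transcript and a change in the transcript per cell cannot be told apart.

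Across the 10 genes the log2 fold change was above 0 in every case, with a median of 1.01 against 0.01 over all 13670 genes tested. In edgeR's quasi-likelihood test, 2 of the 10, Cryaa and Crybb3, passed an adjusted p of 0.1 together with a fold change of 1.5 as higher in ONC, and none as lower. Over all genes tested 0.827% passed as higher and 1.66% in either direction. By the adjusted p alone 3 of the 10 passed, Crym being added, against 2.38% of all genes. Without sham 1, 8 of the 10 passed as higher, all but Cryab and Crym, against 0.936% of all genes, and the median of the 10 was 2.21. Leaving out sham 2 or sham 3 in place of sham 1 had the opposite effect, with 0 of the 10 past the thresholds. Without sham 2 the log2 fold change was 0.89 for Cryaa, 0.78 for Cryba1, 0.84 for Cryba2, 0.52 for Cryba4, 0.47 for Crybb1, 0.76 for Crybb2, 1.19 for Crybb3 and 0.66 for Crygs. Without sham 3 these 8 lay between 0.55 (Crygs) and 1.17 (Crybb3). Cryab had 0.17 and 0.02, and Crym 0.28 and 0.49, without sham 2 and without sham 3. Every ONC pool was above every sham pool in TMM-scaled reads for 2 of the 10, Crybb3 and Crym, against 11.0% of all genes. Because the list was chosen with these values known, nothing is read from these shares. All 10 genes were among those tested, since the mean RPKM of each was above 0.3 in 1 group or both.

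**Figure D2:**
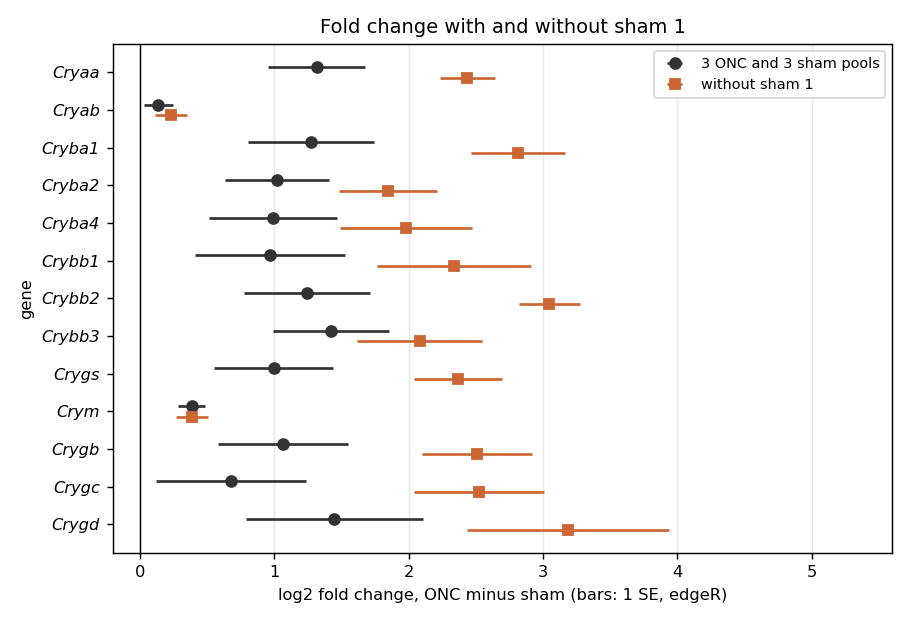
Log2 fold change, ONC minus sham, for the 10 crystallin genes and 3 further gamma crystallins, from all 6 pools (circles) and without sham 1 (squares), with bars of 1 SE. Leaving out sham 1 moves Crybb2 from 1.24 to 3.05 and leaves Crym at 0.39.

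The lens crystallins moved together in that sham 2 and sham 3 were low and the other pools high. As the list was selected on these same reads, this is a description. Each gene was set against its own mean over the 6 pools on the log2 scale of TMM-scaled reads. Of the 9 genes other than Crym, 9 were above their mean in sham 1, none in sham 2 or sham 3, 9 in ONC 1, 8 in ONC 2 and 9 in ONC 3. With sham 2 and sham 3 this low, the other pools tend to lie above the mean, so these counts largely restate the low values. Among the ONC pools the genes did not share an order. Cryaa, Cryba2 and Crybb3 were highest in ONC 1, and Cryba1, Cryba4, Crybb1, Crybb2 and Crygs in ONC 3. The median deviation of the 9 was 0.71 in sham 1, -2.03 in sham 2, -1.25 in sham 3, 0.76 in ONC 1, 0.55 in ONC 2 and 0.92 in ONC 3. Cryab shared the sign of these deviations in most pools but little of their size, from -0.33 in sham 3 to 0.17 in ONC 1. For the 8 genes other than Cryab and Crym, sham 2 and sham 3 were the lowest of the 6 pools in 8 of 8, a pattern that 1453 of the 13670 genes tested showed.

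**Figure D3:**
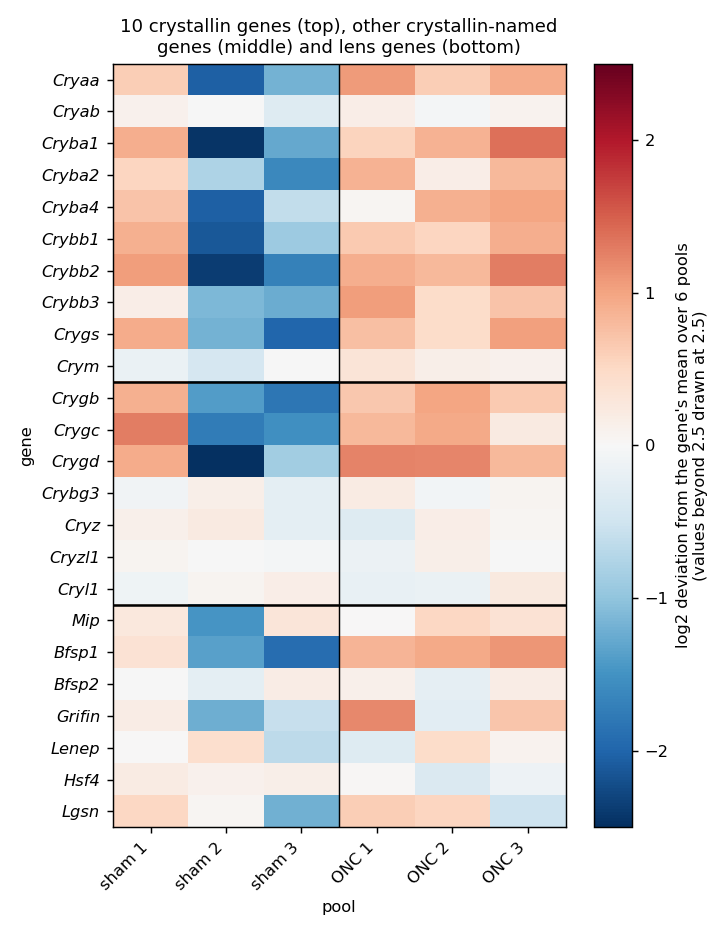
Log2 deviation of each gene from its own mean over the 6 pools, in TMM-scaled reads, with red above and blue below the mean; rows are the 10 crystallin genes, other crystallin-named genes and lens genes, and columns are pools. Sham 2 and sham 3 are blue for the lens crystallins, at -2.45 for Cryba1 and -3.32 for Crygd in sham 2, while Cryab and Crym are nearly white.

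Summed over the 9 genes other than Crym, the RPKM was 101, 34.1 and 31.3 in sham 1, 2 and 3 and 108, 98.6 and 124 in ONC 1, 2 and 3. The ratio of the group means was 1.98, and 3.37 without sham 1. With Cryab left out of the sum, the RPKM was 76.5, 11.5 and 14.7 in the sham pools and 81.7, 74.6 and 98.1 in the ONC pools. The sum in sham 1 thus lay between ONC 1 and ONC 2. On a scale where the mean of sham 2 and sham 3 is 0 and the mean of the ONC pools is 1, in mean log2 values, the 8 lens crystallins other than Cryab stood in sham 1 between 0.70 (Crybb3) and 1.09 (Crybb1), and Crym stood at 0.09. The 117 other genes that passed as higher without sham 1 had a median position of 0.30, with quartiles at 0.13 and 0.54, and 37 of them were above 0.5. They were selected because sham 2 and sham 3 were low against ONC, which by itself favours a position above 0 in sham 1. Their positions are therefore no test of the crystallin values. The injury genes examined outside the family were also highest in sham 1 among the sham pools, but stayed far below the ONC pools there. The metalloproteinase gene Mmp12 had 90, 4 and 14 exon reads in the sham pools and 657, 779 and 666 in the ONC pools. Sprr1a had 24, 0 and 3 in sham and 236, 245 and 223 in ONC, and Ecel1 45, 18 and 16 against 532, 454 and 372. Atf3 had 224, 105 and 138 in sham and 914, 858 and 909 in ONC. The part of any feature of sham 1 in the crystallin values was not tested.

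The spread within the sham group was large for the genes that moved together. The SD of log2 TMM-scaled reads over the 3 sham pools exceeded that of 97.2% of the genes tested for Crybb3 and of 99.9% for Crybb2, with the other 6 lens crystallins between them. It exceeded that of 77.7% of genes for Cryab and 74.8% for Crym. Within ONC the SD for Crybb2 was 0.25, against 1.81 within sham. The biological coefficient of variation that edgeR gave Crybb2 was 41.5%, where genes of that abundance lay near 11.2%, and it was 8.27% for Crym against 7.42%.

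The proportions among the lens crystallins changed less from pool to pool than their levels. Exon reads of Cryba1 were 0.35 to 0.59 times those of Crybb2 in the same pool, and those of Crybb1 0.09 to 0.19 times. Those of Cryaa were 1.30 to 2.53 times, although the reads of Crybb2 ranged from 38 to 570. The ratio of Crygs to Crybb2 lay between 0.29 and 0.35 in 5 pools and was 0.87 in sham 2. For Cryba4, Crybb3 and Cryba2, with fewer reads, the highest ratio was 3.77, 4.23 and 4.78 times the lowest. In contrast, the ratio of Cryab to Crybb2 ran from 1.38 in ONC 3 to 16.8 in sham 2, a span of 12.2-fold, and that of Crym from 1.84 in sham 1 to 17.3 in sham 2. The ratios rest on few reads in sham 2 and sham 3, and such ratios of reads compare a gene with itself between pools, not the level of one gene with another.

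**Figure D4:**
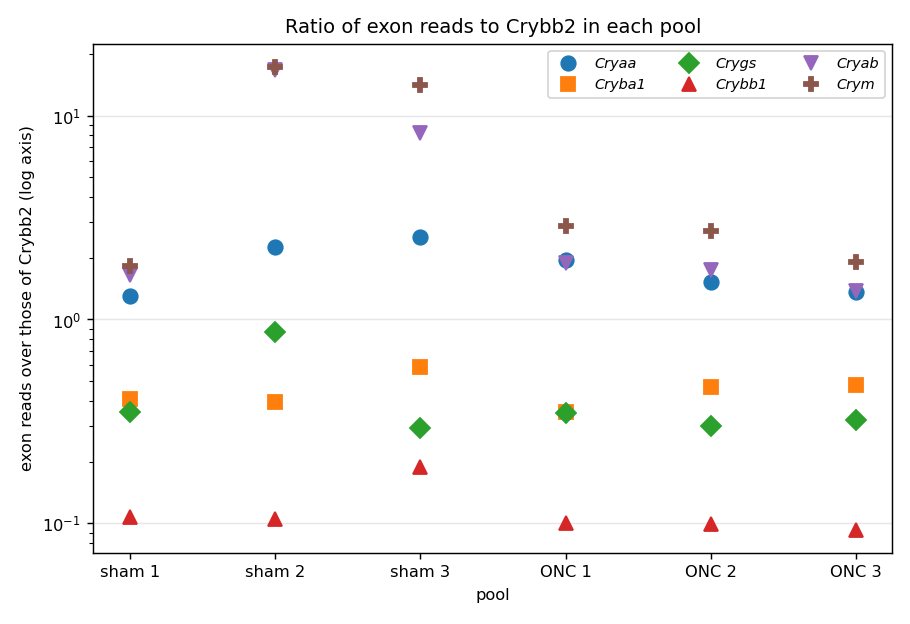
Exon reads of 6 crystallin genes divided by the exon reads of Crybb2 in the same pool, on a log axis, for the 6 pools. Cryba1 stays between 0.35 and 0.59, whereas Cryab and Crym reach 16.8 and 17.3 in sham 2.

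Summed over 8 lens crystallins, reads on introns made up a larger share of the reads in the pools where these genes were low. For the 8 genes other than Cryab and Crym, introns held 41 of 274 reads on the genes in sham 2 (15.0%, 95% Wilson interval 11.2 to 19.7) and 30 of 349 in sham 3 (8.60%, 6.09 to 12.0). Over all genes the intron share was 24.1%, 23.4% and 29.1% in sham 1, 2 and 3 and 19.6% to 21.5% in ONC, highest in sham 3, and its part in the crystallin values was not tested. In sham 1 introns held 8 of 1483 reads on the 8 genes (0.54%, 0.27 to 1.06). In ONC 1, 2 and 3 they held 2 of 1814, 31 of 1611 and 22 of 2158, which is 0.11% (0.03 to 0.40), 1.92% (1.36 to 2.72) and 1.02% (0.67 to 1.54). These intervals cover counting error only. Sham 2 and sham 3 thus had no fewer intron reads than most other pools, and their lower totals lay in the exon reads. The larger share did not hold for every gene. In sham 2 the intron reads lay mainly in Crybb3 (13), Cryba1 (11) and Crygs (9). Cryaa had 0 of 86 reads on introns in sham 2 and 2 of 149 in sham 3, and Crybb2 0 of 38 and 2 of 60. The gene with the clearest case was Cryba1, where introns held 11 of 26 reads in sham 2 (42.3%, 25.5 to 61.0) and 15 of 49 in sham 3 (30.6%, 19.5 to 44.5), but 1 of 776 over the other 4 pools. Spliced reads, those across an exon junction, made up 2 of 15 Cryba1 exon reads in sham 2 (13.3%, 3.74 to 37.9) and from 76.5% to 96.6% in the other pools. For Crym the intron share was 7.35% to 12.3% in all pools, and for Cryab at most 0.74%. The counting is not stated to use strand, so reads of a transcript on the other strand cannot be told apart here.

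Other genes with a crystallin name are not in the list and were tested in the same fit. How the 10 were chosen among the crystallin genes is not stated, so these tests may not be independent of that choice. Of 17 looked for, 14 had a row and 8 were expressed highly enough to be tested. With all pools 0 of 8 passed. Crygb, Crygc and Crygd encode γB-, γC- and γD-crystallin, proteins of the centre of the lens. Crygb had 77, 15 and 10 exon reads in the sham pools and 75, 97 and 77 in the ONC pools. Crygc had 84, 9 and 10 in sham and 68, 77 and 47 in ONC, and Crygd 33, 0 and 8 in sham and 47, 48 and 36 in ONC. All of them were high in sham 1 and low in sham 2 and sham 3, as the lens crystallins of the list were. The log2 fold changes with all pools were 1.07 (SE 0.48, adjusted p = 0.266), 0.68 (SE 0.56, adjusted p = 0.581) and 1.45 (SE 0.66, adjusted p = 0.273) in edgeR's test. Without sham 1 they were 2.51, 2.52 and 3.19, past the thresholds. Without sham 2 they were 0.70, 0.22 and 0.86, and without sham 3 0.64, 0.25 and 1.19, not past them. Since sham 1 was singled out by its crystallin values, the values without it are no test of these genes. These genes are closely related neighbours on chromosome 1, and 86.0% to 93.9% of their exon reads were mapped uniquely, so the split between them is uncertain.

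The lens-restricted relatives Cryga, Cryge and Crygf had at most 2 exon reads in any pool, and Crygn, a gamma crystallin known from the retina, had 0 in the sham pools and 0, 2 and 5 in ONC. The enzymes that carry a crystallin name gave no call. Cryz, a quinone reductase, had a log2 fold change of -0.06 (SE 0.14, adjusted p = 0.860), and its relative Cryzl1 of 0.00 (SE 0.08, adjusted p = 0.992), with 71.0% of its reads mapped uniquely. Cryl1, a dehydrogenase of sugar metabolism, had -0.07 (SE 0.23, adjusted p = 0.912). The large beta-gamma domain gene Crybg3 had 0.12 (SE 0.12, adjusted p = 0.665), while its relatives Aim1 and Aim1l were below the level needed for testing, with at most 60 and 3 exon reads. Lgsn, a lens protein related to glutamine synthetase, had 0.36 (SE 0.51, adjusted p = 0.774), with 17.5% of its reads mapped uniquely, and -1.42 when only unique reads were counted.

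Genes that mark lens cells other than by crystallins were scarce. Of 14 such genes 7 could be tested, and 0 passed with all pools. The RPKM summed over the 14 ranged from 6.84 to 11.4 in the sham pools and from 10.3 to 13.0 in the ONC pools, and Lenep, with a mean of 5.34 ± 2.13 in sham and 6.28 ± 1.84 in ONC (SD, n = 3), held the largest part. Lenep and Hsf4 held most of this sum. Without them, a split made after the values were seen, the other 12 genes had 94, 46 and 43 exon reads in sham 1, 2 and 3 and 115, 115 and 108 in ONC 1, 2 and 3. Their RPKM summed to 2.39, 1.12 and 1.02 in sham and to 2.998, 2.52 and 2.56 in ONC, with sham 1 nearer to the ONC pools. Over all 14 genes the sums in sham 1, 2 and 3 were 11.0, 11.4 and 6.84, so sham 1 did not stand apart. Lenep, which was left out, had 85, 118 and 51 exon reads in the sham pools, and Hsf4 125, 120 and 116. The 12 genes include Lgsn, with 31, 23 and 8 reads in sham and 17.5% of its reads mapped uniquely. Nothing is therefore read from this split. The lens fibre genes differed among themselves. Bfsp1, which encodes the beaded filament protein filensin, had 17, 4 and 2 exon reads in sham and 28, 31 and 35 in ONC, with sham 1 above the other sham pools and below the ONC pools. Its log2 fold change was 1.80 (SE 0.61, adjusted p = 0.118), and 3.12, 1.47 and 1.37 without sham 1, 2 and 3, of which the value without sham 1 passed the thresholds.

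Mip, the aquaporin that is the main membrane protein of lens fibres, had 14, 3 and 14 exon reads in sham and 13, 20 and 18 in ONC. Its log2 fold change was 0.49 (SE 0.61, adjusted p = 0.744). Grifin, a lens galectin, had 3, 0 and 1 reads in sham and 9, 2 and 6 in ONC, and Lim2, a lens membrane protein, 3, 3 and 0 in sham and 6, 4 and 7 in ONC. The lens connexin gene Gja3, the fibre nuclease Dnase2b, and Birc7 and Foxe3 had at most 2 reads in any pool, and each was at 0 in 5 of the 6 pools. Lctl had at most 7 reads. Bfsp2 had 13 to 21 reads in every pool and Hsf4 98 to 125, with log2 fold changes of 0.07 (SE 0.51) and -0.30 (SE 0.20). Whether lens material in a pool had a part in the crystallin values was not tested.

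Markers of retinal and neighbouring cells were examined in the same fit. Of 10 genes of Müller glia and astrocytes, the glia in which Cryab is known to be made, 0 passed, and Clu passed the adjusted p but not the fold change, at 0.35 (SE 0.05, adjusted p = 0.000387). The most abundant, Glul, which encodes glutamine synthetase, had a log2 fold change of -0.13 (SE 0.05, adjusted p = 0.206). Of 10 genes of the pigment epithelium, of 8 rod genes and of 8 genes of the ciliary body and iris, which lie next to the lens, 0 passed. Without sham 1 the pigment cell gene Tyrp1 passed as lower, at -0.99 (adjusted p = 0.0890), against -0.72 (adjusted p = 0.241) with all pools. Rlbp1 and Car2, the most abundant of the pigment epithelium list and of the ciliary body and iris list, had log2 fold changes of 0.00 (SE 0.05) and 0.01 (SE 0.05). The rod genes Sag, Nr2e3 and Pde6b passed the adjusted p but not the fold change, at 0.39 (adjusted p = 2.14e-05), 0.37 (adjusted p = 0.00171) and 0.18 (adjusted p = 0.0340). The ciliary body and iris genes summed to an RPKM of 253 to 278 in sham and 283 to 304 in ONC, with 278 in sham 1. Car2 (means of 220 in sham and 241 in ONC) and Aqp1 (41.6 and 47.4) held most of this sum. It thus says little of the other genes of that list, of which Otx1 and Msx1 were too low to be tested. In contrast, 5 of 8 ganglion cell genes fell (Pou4f1, Pou4f2, Rbpms, Sncg and Nefh), from -0.75 (SE 0.11, adjusted p = 0.000289) for Pou4f1 to -1.39 (SE 0.19, adjusted p = 0.000103) for Pou4f2. In the microglia and macrophage list 4 of 10 rose (Itgam, C1qa, C1qb and Cd68), with C1qb, a complement component, at 0.81 (SE 0.17, adjusted p = 0.00633). This count was 3 without sham 1, where C1qa was lost (adjusted p = 0.232), 1 without sham 2, ONC 2 or ONC 3, and 2 without sham 3 or with the replicate block.

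The alpha crystallins belong to the small heat shock proteins, of which 8 other genes were examined and 5 tested. Hspb8, a partner of the autophagy adaptor Bag3, rose by 0.59 on the log2 scale (SE 0.18, adjusted p = 0.0856), with 113, 151 and 154 exon reads in sham and 202, 307 and 222 in ONC. Without sham 1 it was no longer past the threshold (0.46, adjusted p = 0.272), nor was it without sham 2, sham 3, ONC 2 or ONC 3. With all pools it also fell short under DESeq2 size factors, under edgeR's own expression filter and with unique exon reads. Hspb1, with 98, 56 and 64 reads in sham and 150, 128 and 143 in ONC, had 0.73 (SE 0.24, adjusted p = 0.101), and 1.01, 0.55 and 0.67 without sham 1, 2 and 3, of which the value without sham 1 passed the thresholds. Hspb6, the most abundant of them at 53.9 ± 4.21 RPKM in sham and 58.0 ± 1.76 in ONC (SD, n = 3), had -0.02 (SE 0.07, adjusted p = 0.938). Hspb2, which lies beside Cryab in a head-to-head pair, had at most 4 reads in any pool.

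Of 17 transcription factors that act in the lens or on crystallin promoters, 14 were tested and 0 passed the thresholds. Pax6, the most abundant, had a log2 fold change of -0.11 (SE 0.06, adjusted p = 0.356). Prox1, which drives beta and gamma crystallin genes in lens fibres, passed the adjusted p but not the fold change, at -0.33 (SE 0.08, adjusted p = 0.0265). Beside Crym, 13 genes of thyroid hormone handling were examined. Of the 11 tested 0 passed the thresholds, and Dio2, which activates thyroid hormone, had -0.39 (SE 0.10, adjusted p = 0.0371). The receptor gene Thra, the most abundant of this list, had -0.19 (SE 0.06, adjusted p = 0.0935). Of 5 genes of the ketimine and lysine pathway 4 were tested and 0 passed, and Aldh7a1, the most abundant, had 0.02 (SE 0.07, adjusted p = 0.903).

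Likeness to the crystallin pattern was measured as the root mean square difference between log2 deviations over the 6 pools, among 679 genes whose mean RPKM was above 1 in 1 group or both, with a range of at least 1 on the log2 scale. Nearest to the mean pattern of the 9 alpha, beta and gamma genes was Crygb, at 0.35. Next came Capg, an actin capping protein of macrophages, at 0.38, with 23, 8 and 12 exon reads in sham and 39, 40 and 35 in ONC. Omg, a myelin glycoprotein, had 0.43, with 65, 13 and 25 reads in sham and 55, 103 and 63 in ONC. Insl5 had 0.42, and so had a gene on chromosome 15 whose symbol is given as a calendar date. The listed genes themselves lay between 0.25 (Cryaa) and 0.46 (Crybb2) from their mean pattern, apart from Cryab at 0.89. Nearest to Crym among the 679 were Lrrk2 (0.14), Serpinb9 (0.14) and Ndufaf6 (0.16). The deviations of Crym itself ran only from -0.42 to 0.32, short of the range asked of the 679. Genes that varied as little as Crym were thus not compared, and nearer ones may exist. As an example, the kinase gene Lrrk2 had 208, 148 and 226 reads in sham and 368, 270 and 280 in ONC.

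The genes that moved together were not all neighbours in the genome. On chromosome 5, Cryba4 and Crybb1 lay 3318 bases apart and Crybb2 and Crybb3 7072 bases apart, with 788682 bases between the pairs. The others that moved together, Cryba2, Cryba1, Crygs and Cryaa, lay on chromosomes 1, 11, 16 and 17. Crym and Cryab lay on chromosomes 7 and 9. RefSeq promoter windows on GRCm38.p6 were available for 8 of the 10 genes, not for Cryab and Crym. Because these 8 are the genes that shared the pool pattern, the 250 bases before each start were searched on both strands. The first motif was TATAAA, which binds the basal transcription machinery. The second was TGCTGA, the core of the element bound by Maf factors. The third was GAANNTTC, the core of the heat shock element, and no matches overlapped. TGCTGA was present in 7 of the 8 and in 16.1% of 32851 promoters, TATAAA in 3 of the 8 (Cryba1, Crybb1 and Crygs) and in 12.4%, and GAANNTTC in 0 of the 8 and in 6.69%. A match is only a match of letters. The promoter without TGCTGA was that of Crybb2, whose RefSeq start lies 1351 bases from the start in the tables, against at most 16 bases for the other 7. One gene of each class is shown, as the 150 bases before its start, 5′ to 3′ on the strand of the gene, with matches of TGCTGA and TATAAA in capitals. They lie at chr17:31677781-31677930 (plus strand), chr11:77725294-77725443 (minus strand) and chr16:22811411-22811560 (minus strand).
Cryaa: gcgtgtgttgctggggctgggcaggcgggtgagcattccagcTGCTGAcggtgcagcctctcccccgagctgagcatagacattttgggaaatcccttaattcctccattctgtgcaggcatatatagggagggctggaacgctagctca
Cryba1: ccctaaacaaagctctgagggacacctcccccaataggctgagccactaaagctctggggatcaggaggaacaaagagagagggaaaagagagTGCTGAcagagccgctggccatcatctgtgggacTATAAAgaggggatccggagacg
Crygs: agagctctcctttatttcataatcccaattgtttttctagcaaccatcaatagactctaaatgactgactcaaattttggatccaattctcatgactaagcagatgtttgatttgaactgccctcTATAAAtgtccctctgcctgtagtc
In Cryba1 the TATAAA began 23 bases and the TGCTGA 57 bases before the start. Cryaa had TGCTGA at 108 bases and no TATAAA, and Crygs had TATAAA at 25 bases, its TGCTGA lying outside the stretch shown, at 200 bases on the other strand.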

How the data were processed

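RNA was sequenced from 3 ONC and 3 sham pools. The authors used CLC Genomics Workbench to map read pairs, and deposited 1 table per pool with counts of reads on exons, junctions and whole genes, not normalized, with an intact pair counted as 1. The deposited RPKM divides exon reads by exon length and by all reads on genes, introns included. The paper names mm9, but the positions of all 10 crystallin genes overlap RefSeq genes on GRCm38, so they are given as GRCm38. The 13670 genes whose mean RPKM was above 0.3 in 1 group or both were tested on total exon reads with edgeR 4.0.16 (TMM, quasi-likelihood F test, group as the only term, Benjamini-Hochberg adjustment) in R 4.3.3. A call needed a fold change above 1.5 in either direction at an adjusted p under 0.1. The SE is the log2 fold change over the square root of F. Deviations used log2 TMM-scaled reads with a prior count of 2.

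The fit was tested on simulated data. Alternatives were DESeq2 1.42.0 (size factors, Wald test), limma 3.58.1 on log2(RPKM + 0.1) and log2(RPKM + 1), all reads on genes as library size, other filters, unique exon reads, total gene reads, a replicate block and leaving out each pool. Other steps used Python 3.11.15 with pandas 2.3.3 and scipy 1.17.1. The genes and lists were chosen with earlier results of these data known. Named were all 10 genes, other crystallin-named genes, for each list the called genes and the most abundant, and the 5 and 3 genes of nearest pattern. Lens markers, Hspb1, Hspb2, Prox1, Dio2, Sag, Nr2e3, Pde6b, Clu, Tyrp1 and Mmp12 were named after their values were seen, and some list genes are not reported here. Columns of group means were not used.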

Additional observations from a re-analysis of the deposited data

How the results depend on the processing

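All 10 log2 fold changes stayed above 0 in each of the 16 alternatives, but the number past the thresholds (2 of 10 by edgeR with TMM) depended on the setting. It was 6 with all reads on genes as library size, 1 with the DESeq2 Wald test, 5 with limma on log2(RPKM + 0.1) and 5 on log2(RPKM + 1), 7 without the RPKM filter and 1 with total gene reads. With the replicate block it was 6, and 222 genes were called in all. No source says that the replicate numbers pair the pools. The correlations of deviations of same-numbered pools were -0.05, -0.03 and 0.00, which cannot settle whether those pools were handled together. Leaving out 1 pool at a time gave 0 to 8 of the 10: 8 without sham 1, the pool singled out by its crystallin values, 0 without sham 2, 0 without sham 3, 5 without ONC 1, 1 without ONC 2 and 0 without ONC 3. The summed RPKM ratio of 1.98 ranged from 1.63 to 3.37 when 1 pool was left out, 3.37 being the value without sham 1. Over all genes 227 were called (113 higher, 114 lower), against 350 with all reads on genes as library size (263 higher, 87 lower) and 349 with total gene reads (113 higher, 236 lower), and 153 to 353 without 1 pool, 353 without ONC 1 and 153 without sham 2. That library size moved the median log2 fold change of all genes to 0.13, and the RPKM values share it: limma called 282 (217 higher, 65 lower) with the pseudocount of 0.1 and 165 (126 higher, 39 lower) with 1. In the fixed lists 10 genes were called, and 6 to 13 without 1 pool, 6 being the value without sham 2, ONC 2 or ONC 3. The cause of these shifts was not tested. Depth limits the sham 2 and sham 3 values of Cryba4, Crybb1, Crybb3, Cryba1, Crygs and Cryba2, which rest on 4 to 36 reads.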
